A study of Homo sapiens with 12 samples.

Results

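Cytokine receptors are cell-surface proteins that bind secreted signalling proteins and pass the signal on through kinases held at their inner side. The genes described here are 10 receptor subunits: IL20RB, IL20RA, IL22RA1, IL10RB, IL6R, IL6ST, IL1R1, IL4R, OSMR and LIFR. They were taken by gene name from a table of 58735 genes, and all 10 were found once each. The set was chosen by FPKM levels of IL20RB over all 12 libraries, with the other receptors added by name while their levels were known. The IL20RB values are therefore given as a description without a test, and counts over the 10 genes support nothing by themselves.

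The RNA came from TFK1 cells of wild-type genotype per the labels, an established line from a human bile duct cancer, collected 24 h after treatment. There were 4 groups of 3 labelled biological replicates. The combination group received nab-paclitaxel at 1.62 ng/ml and 6 Gy of radiation, the nab-paclitaxel group the drug alone, the radiation group 6 Gy alone, and the control group neither. Nab-paclitaxel is an albumin-bound form of paclitaxel, a drug that stabilises microtubules. All groups share this 1 line. In such bulk RNA, fewer cells that make a transcript and less of it per cell cannot be told apart.

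Levels are FPKM, fragments scaled by gene length and library size, as deposited. FPKM is per length, so levels of different genes can be set side by side. Libraries held 14840283 to 17992242 fragments. Values after ± are SD for FPKM and SE for log2 fold changes, with n = 3 libraries per group. Fold changes are on log2(FPKM + 1), which understates the change of low genes. "Rose" and "fell" are used for limma adjusted p-values below 0.05, with adjustment over the 13609 genes tested. Genes were tested where the mean over the 12 libraries reached 1 FPKM. 8 of the 10 receptor genes did, and IL20RA and IL10RB did not.

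The biliary epithelial marker KRT19 averaged 419 FPKM, and 6 of 9 such markers reached 1 FPKM. The summed level of those 9 was 1345 to 1702 FPKM in combination, 1183 to 1332 in nab-paclitaxel, 1105 to 1181 in radiation and 719 to 905 in control. Of 8 macrophage, 7 lymphocyte and 6 endothelial markers 0 reached 1 FPKM, while 1 of 8 fibroblast markers (COL1A1, 5.70 FPKM) and 1 of 6 hepatocyte markers (SERPINA1, 6.64 FPKM) did. The summed hepatocyte markers were at 8.22 to 9.79 FPKM in combination, 5.81 to 7.22 in nab-paclitaxel, 6.29 to 6.97 in radiation and 4.06 to 6.04 in control. The summed fibroblast markers were at 4.03 to 4.68 FPKM in combination, 4.53 to 4.89 in nab-paclitaxel, 6.91 to 7.79 in radiation and 6.14 to 7.45 in control. Their part in the results was not tested. On the second principal component control 2 (30.6) and nab-paclitaxel 1 (28.6) stood apart from the other libraries. Combination 2 (3.64) was the highest of its group but lay near control 1 (0.762) and nab-paclitaxel 3 (0.0947). Control 2, nab-paclitaxel 1 and combination 2, called the 3 picked libraries, were chosen from these data. Fits without them are therefore a description, and their p-values are no independent test. Leaving them out raised the number of genes called in every comparison but the interaction. For the 10 receptor genes, values without the 3 picked libraries are given where a call differs.

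The subunits fall into 3 families. IL20RB, IL20RA, IL22RA1 and IL10RB belong to the class II cytokine receptors. IL20RA pairs with IL20RB to bind IL-19, IL-20 and IL-24, IL22RA1 pairs with IL20RB to bind IL-20 and IL-24, and IL22RA1 pairs with IL10RB to bind IL-22. IL6ST, also called gp130, is the shared signal chain of IL-6, oncostatin M and leukaemia inhibitory factor, which reach it through IL6R, OSMR and LIFR. IL4R binds IL-4 with IL13RA1 or IL2RG as partner, and IL1R1 is the signalling receptor of IL-1. Except for IL1R1, these chains signal through JAK kinases and STAT transcription factors. In bile duct epithelium, IL-6 and STAT3 are known for their part in cholangiocyte growth.

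IL20RB lies on chromosome 3 of hg38 (136946230 to 137011085, plus strand, ENSG00000174564). Its RefSeq promoter is shown because IL20RB is the gene with the clearest change in level, with the promoters of SLC7A1 and FUT1, the 2 that hold the marked letters among the 5 genes whose levels were most like those of IL20RB over the 12 libraries. They were picked for that match, and the windows of the other 3 (GTPBP2, CTDSP2 and LINC00963) and the second window of FUT1 have none. Each is a window of 300 bases, 250 before and 50 after the annotated start, in build GRCh38.p14. The capitals mark the letters TGATGNAA, the pattern of the composite C/EBP-ATF element. The IL20RB window is chr3:136957733-136958032 (plus strand), the SLC7A1 window chr13:29595639-29595938 (minus strand) and the FUT1 window chr19:48755309-48755608 (minus strand).
IL20RB: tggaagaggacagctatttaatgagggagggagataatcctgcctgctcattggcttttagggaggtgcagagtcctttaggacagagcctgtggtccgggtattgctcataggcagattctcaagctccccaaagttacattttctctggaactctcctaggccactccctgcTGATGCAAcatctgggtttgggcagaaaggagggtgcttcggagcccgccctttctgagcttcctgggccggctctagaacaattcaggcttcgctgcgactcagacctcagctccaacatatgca
SLC7A1: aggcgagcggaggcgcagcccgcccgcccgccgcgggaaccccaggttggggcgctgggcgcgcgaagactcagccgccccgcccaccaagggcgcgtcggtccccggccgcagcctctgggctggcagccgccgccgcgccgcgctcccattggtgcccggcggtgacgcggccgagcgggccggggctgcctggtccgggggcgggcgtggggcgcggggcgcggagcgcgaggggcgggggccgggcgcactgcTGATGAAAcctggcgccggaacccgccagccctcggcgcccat
FUT1: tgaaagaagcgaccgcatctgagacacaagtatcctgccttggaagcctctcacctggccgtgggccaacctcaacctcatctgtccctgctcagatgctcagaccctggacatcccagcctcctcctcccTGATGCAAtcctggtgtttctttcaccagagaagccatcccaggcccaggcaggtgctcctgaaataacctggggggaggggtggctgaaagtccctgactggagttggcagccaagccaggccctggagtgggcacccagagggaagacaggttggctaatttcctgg

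The pattern was chosen after the IL20RB window had been read. Searched on both strands, TGATGNAA occurs in 3.62% of 35116 RefSeq promoter windows of this length. It was found in none of the 15 windows of the other 9 receptor genes. The STAT pattern TTCNNNGAA occurs in 7.66% and the AP-1 pattern TGANTCA in 7.71% of all windows, and the IL20RB window holds neither. IL6R, OSMR and IL22RA1 have 1 AP-1 match each, and IL10RB, LIFR and IL1R1 have a STAT match. The IL20RB window is counted from a start 11753 bases inside the gene as deposited, so it covers 1 of the annotated starts. A match is a description of letters and shows no binding.

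IL20RB was at its highest in untreated cells, was lower after either treatment and was lowest after both. It had 1.30, 1.99 and 1.86 FPKM in combination, 3.24, 4.80 and 3.28 FPKM in nab-paclitaxel, 3.38, 3.73 and 3.36 FPKM in radiation, and 9.72, 7.29 and 7.81 FPKM in control. All 3 combination libraries lay below all libraries of the single treatments, and all of those lay below all 3 controls. The values rest on 57 to 383 fragments per library.

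IL20RB averaged 1.72 ± 0.362 FPKM in combination and 8.28 ± 1.28 FPKM in control, a ratio of means of 0.207 (4.83 times lower). It averaged 3.77 ± 0.892 FPKM in nab-paclitaxel, 2.19 times lower than in control, and 3.49 ± 0.210 FPKM in radiation, 2.37 times lower than in control. The fitted log2 fold changes were -1.77 ± 0.15 for combination vs control, -0.97 ± 0.15 for nab-paclitaxel vs control and -1.04 ± 0.15 for radiation vs control. Among the 13609 genes tested, these were the 8th, 125th and 29th most negative. The 3 comparisons share the control libraries.

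**Figure D1:**
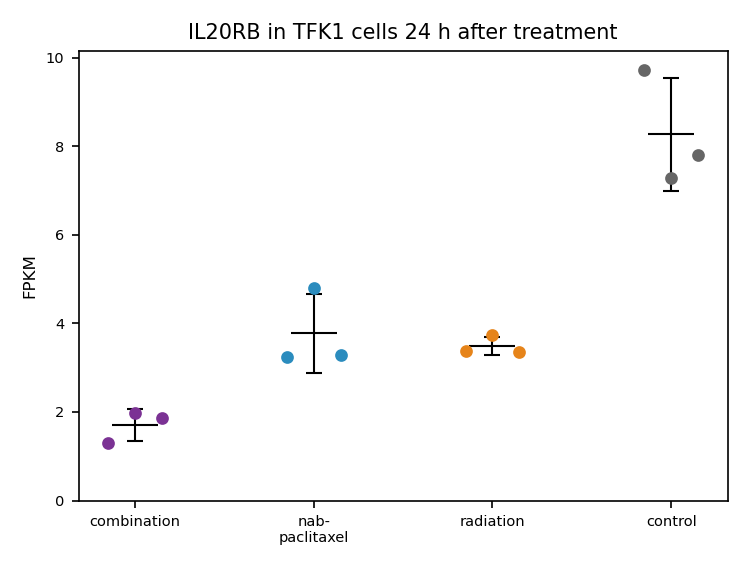
FPKM of IL20RB in each library (points), with the group mean and SD (lines and whiskers, n = 3), for combination, nab-paclitaxel, radiation and control. The combination libraries lie between 1.30 and 1.99 FPKM and the control libraries between 7.29 and 9.72 FPKM, with both single treatments in between.

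The same values, set against the single treatments, are again a description. IL20RB was 2.03 times lower in combination than in radiation (-0.73 ± 0.15), beside 2.19 times lower in nab-paclitaxel than in control. Likewise radiation gave 2.20 times less in drug-treated cells, combination against nab-paclitaxel (-0.81 ± 0.15), beside 2.37 times less in radiation than in control. The product of the single ratios is 0.192, and the combination stood at 0.207 of control. The interaction on the log2 scale was 0.23 ± 0.21.

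Without control 2, nab-paclitaxel 1 and combination 2 the IL20RB values were -1.92 for combination vs control, -0.96 for nab-paclitaxel vs control and -1.12 for radiation vs control. With 1 radiation library left out, combination vs radiation was at -0.75, -0.69 and -0.75, and without combination 1 or 3 at -0.62 and -0.77. Of the genes that overlap IL20RB, NCK1 on the same strand averaged 7.52 ± 1.16 FPKM in combination, 7.63 ± 0.967 in nab-paclitaxel, 6.79 ± 0.225 in radiation and 6.58 ± 0.783 in control. IL20RB-AS1 on the opposite strand averaged 0.352 ± 0.0603 FPKM in combination and 0.696 ± 0.417 FPKM in control. How reads shared with either gene were assigned was not tested.

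Those 5 genes with levels most like IL20RB over the 12 libraries were GTPBP2 (r = 0.97), SLC7A1 (r = 0.96), FUT1 (r = 0.96), CTDSP2 (r = 0.96) and LINC00963 (r = 0.95). These are Pearson correlations of log2(FPKM + 1) over 12 libraries in 4 treatment groups, so they mostly restate shared group levels. SLC7A1, a transporter of cationic amino acids, averaged 25.7 ± 1.75 FPKM in combination, 35.0 ± 5.47 in nab-paclitaxel, 33.9 ± 0.779 in radiation and 52.1 ± 4.01 in control. GTPBP2, a GTP-binding protein that helps to free stalled ribosomes, averaged 15.4 ± 1.25 FPKM in combination and 31.8 ± 3.34 FPKM in control. FUT1, a fucosyltransferase that makes the H antigen, averaged 5.93 ± 0.0463 FPKM in combination and 11.5 ± 1.06 FPKM in control.

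The chains that pair with IL20RB were low, and neither was called in any comparison. IL22RA1, the partner of both IL20RB and IL10RB, had 1.23, 1.12 and 1.22 FPKM in combination, 1.04, 1.16 and 1.21 in nab-paclitaxel, 1.10, 1.28 and 1.10 in radiation, and 0.920, 0.605 and 1.58 in control. The control libraries span the values of the treated ones. Its fitted changes ranged from 0.02 to 0.13 over the 5 comparisons, with limma adjusted p of 0.559 to 0.946.

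IL20RA stayed between 0.0251 and 0.220 FPKM, which is 2 to 16 fragments per library, and IL10RB between 0.148 and 0.472 FPKM, 12 to 37 fragments. Both overlapped between all groups compared. In a fit without the filter on low values, limma gave IL20RA and IL10RB no call in any comparison. At these fragment numbers a change of moderate size was not detectable. The ligands IL19, IL20 and IL24 were each at most 0.150 FPKM, and were listed at 0 in 10, 5 and 6 of the 12 libraries. Of the 9 ligands of the IL-10 family 0 reached 1 FPKM, IFNL1 (0.140) and IFNL3 (0.0933) being the highest on average.

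Of the tested receptor genes other than IL20RB, only IL4R, the chain that binds IL-4, passed the threshold. IL4R rose in combination vs control. IL4R lies on chromosome 16 (27313668 to 27364778, plus strand, ENSG00000077238). It had 7.47, 7.03 and 7.60 FPKM in combination, 5.44, 6.36 and 5.61 in nab-paclitaxel, 5.93, 5.20 and 5.43 in radiation, and 4.80, 3.64 and 5.24 in control. The 3 combination libraries lay above all 9 others, and the radiation libraries overlapped the controls. The log2 fold change of combination vs control was 0.60 ± 0.11 (limma adjusted p = 0.00287). Its range over the alternatives was 0.47 to 0.71, with adjusted p of 0.00141 to 0.0221.

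The single treatments left IL4R between those levels, without passing: nab-paclitaxel vs control gave 0.30 ± 0.11 (limma adjusted p = 0.105) and radiation vs control 0.24 ± 0.11 (limma adjusted p = 0.249). Combination vs radiation gave 0.36 ± 0.11 (limma adjusted p = 0.0647), which passed without control 2 (0.0182) or without the 3 picked libraries (0.00684).

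Its partner IL13RA1, which with IL4R forms the type II receptor for IL-4 and IL-13, rose with the drug. IL13RA1 had 23.5, 24.1 and 24.6 FPKM in combination, 21.8, 20.4 and 21.1 in nab-paclitaxel, 16.9, 16.1 and 17.2 in radiation, and 15.4, 16.4 and 14.7 in control. All 6 drug-treated libraries lay above all 6 without drug. The log2 fold change was 0.61 ± 0.07 for combination vs control (limma adjusted p = 2.25e-04), 0.42 ± 0.07 for nab-paclitaxel vs control (limma adjusted p = 0.00655) and 0.50 ± 0.07 for combination vs radiation (limma adjusted p = 0.00309). The call of nab-paclitaxel vs control was lost in a fit of these 2 groups alone (adjusted p = 0.138). The other partner, IL2RG, was at most 0.0944 FPKM and was listed at 0 in 10 of 12 libraries. Of 4 cytokines listed for type 2 immunity 0 reached 1 FPKM. IL4 averaged 0.214 FPKM, and TSLP, which binds another receptor, averaged 0.954 FPKM.

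**Figure D2:**
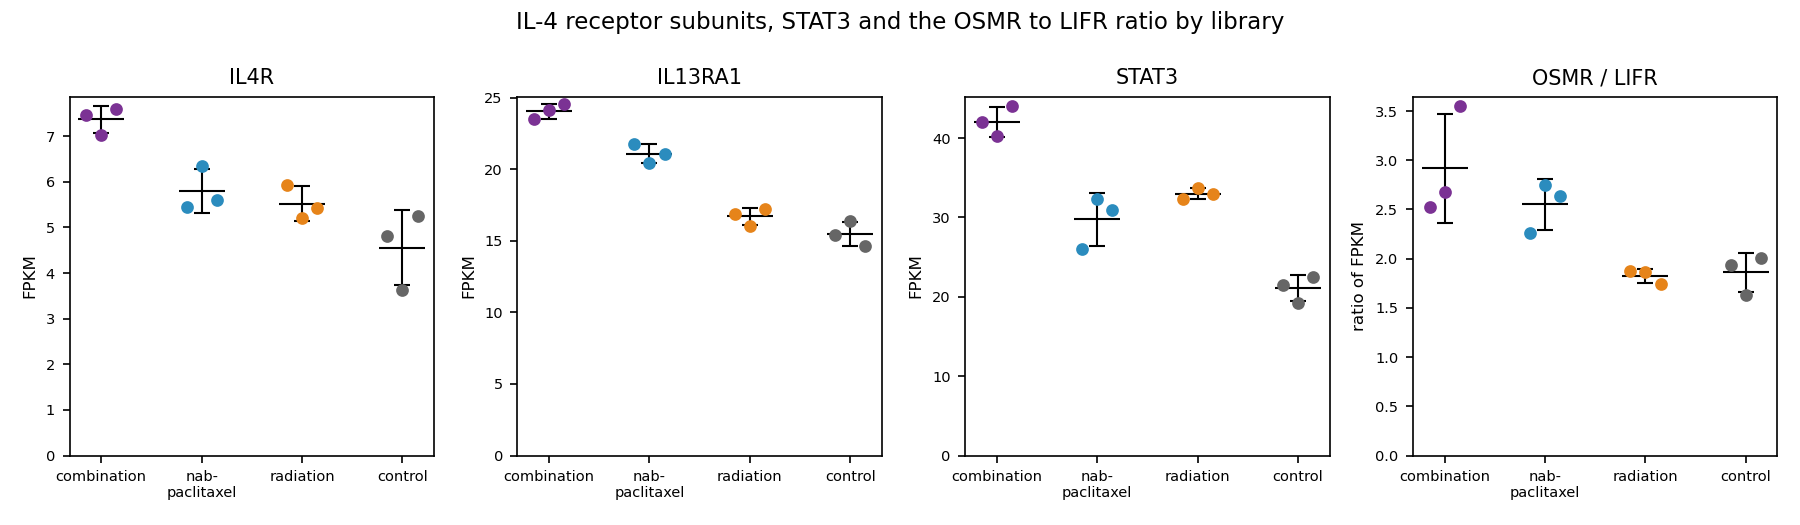
FPKM of IL4R, IL13RA1 and STAT3 and the ratio of OSMR to LIFR in each library (points), with group mean and SD (lines and whiskers, n = 3). The combination libraries are the highest for IL4R (7.03 to 7.60 FPKM), and the 6 drug-treated libraries lie above the 6 others for IL13RA1.

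The gp130 family held the most abundant subunits. OSMR, the oncostatin M receptor chain, had 39.7, 50.4 and 47.8 FPKM in combination, 37.4, 39.3 and 45.3 in nab-paclitaxel, 39.1, 36.3 and 37.7 in radiation, and 32.8, 41.1 and 35.0 in control. The combination libraries lay above the radiation libraries but overlapped those of control, where control 2 was the highest. The change was 0.33 ± 0.11 for combination vs control (limma adjusted p = 0.0554). It passed without control 2 (0.0227), without nab-paclitaxel 1 (0.0428), without combination 1 (0.0301) or without the 3 picked libraries (0.0226).

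LIFR, the receptor of leukaemia inhibitory factor, had 15.7, 18.8 and 13.5 FPKM in combination, 16.5, 14.3 and 17.2 in nab-paclitaxel, 20.9, 19.5 and 21.6 in radiation, and 16.9, 25.1 and 17.4 in control. The combination libraries lay below the radiation libraries (-0.36 ± 0.15, limma adjusted p = 0.165). This passed without the 3 picked libraries (-0.48, adjusted p = 0.0069). LIFR and OSMR are neighbours on chromosome 5, 237503 bases apart and on opposite strands.

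The ratio of OSMR to LIFR was 2.52, 2.68 and 3.55 in combination, 2.26, 2.75 and 2.64 in nab-paclitaxel, 1.87, 1.86 and 1.74 in radiation, and 1.94, 1.64 and 2.01 in control. All 6 drug-treated libraries lay above all 6 without drug. The ratio was chosen after the values were seen and was not tested. RICTOR, which overlaps OSMR on the opposite strand, averaged 8.42 ± 1.53 FPKM in combination, 7.86 ± 1.27 in nab-paclitaxel, 10.2 ± 0.533 in radiation and 10.2 ± 2.21 in control.

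IL6ST, the shared chain, had 10.3, 13.5 and 8.75 FPKM in combination, 12.9, 8.24 and 11.1 in nab-paclitaxel, 14.2, 12.5 and 13.9 in radiation, and 9.27, 15.2 and 10.0 in control. Control 2, nab-paclitaxel 1 and combination 2 were the highest of their groups. The spread within groups was as wide as the differences between them, and no comparison passed (limma adjusted p = 0.36 to 0.986). Without those 3 libraries IL6ST passed in radiation vs control (0.45, adjusted p = 0.0321) and in combination vs radiation (-0.46, adjusted p = 0.022). As those 3 were the highest of their groups, leaving them out lowers the group means by itself, and these p-values are no test. A pseudogene on the opposite strand within IL6ST, AC016596.1, averaged 30.9 ± 8.63 FPKM in combination and 32.3 ± 3.09 FPKM in control.

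IL6R, the chain that binds IL-6, had 2.09, 2.16 and 2.11 FPKM in combination, 1.61, 2.12 and 2.27 in nab-paclitaxel, 1.94, 1.90 and 1.83 in radiation, and 1.46, 1.65 and 1.61 in control. The combination and the radiation libraries lay above all controls, and nab-paclitaxel 1 (1.61 FPKM) lay within the control range. The change was 0.28 ± 0.10 for combination vs control (limma adjusted p = 0.0597), which passed without nab-paclitaxel 1 (0.0185) or without the 3 picked libraries (0.0284). Without those 3 libraries IL6R also passed in nab-paclitaxel vs control (0.34, adjusted p = 0.0372). Of the 9 gp130 family ligands 4 were tested, and limma called 0 in any comparison. It called 1 higher in combination vs control and 1 in combination vs radiation without the 3 picked libraries. Without combination 2 alone it called 1 in each of the same comparisons, and without control 2 or nab-paclitaxel 1 alone 1 in combination vs radiation. LIF was the most abundant, at 26.9 ± 3.16 FPKM in combination, 26.5 ± 2.51 in nab-paclitaxel, 19.7 ± 2.03 in radiation and 21.4 ± 2.93 in control, followed by CLCF1 at 2.51 FPKM on average. IL6 reached at most 0.112 FPKM and OSM at most 0.428 FPKM.

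IL1R1, the IL-1 receptor, had the smallest spread relative to its level of the 10. It had 3.31, 4.07 and 3.62 FPKM in combination, 3.51, 3.49 and 3.89 in nab-paclitaxel, 3.29, 3.24 and 3.52 in radiation, and 3.29, 3.76 and 3.57 in control. The groups overlapped throughout, with fitted changes of -0.06 to 0.10 and limma adjusted p of 0.507 to 0.978. A list of 9 IL-1 family ligands and antagonists was looked up, not all of which bind IL1R1. IL18, which is not a ligand of IL1R1, was the only 1 tested (11.5 ± 1.33 FPKM in combination, 10.3 ± 2.79 in control) and did not pass. IL1A averaged 0.692 FPKM, and IL1B reached at most 0.253 FPKM.

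**Figure D3:**
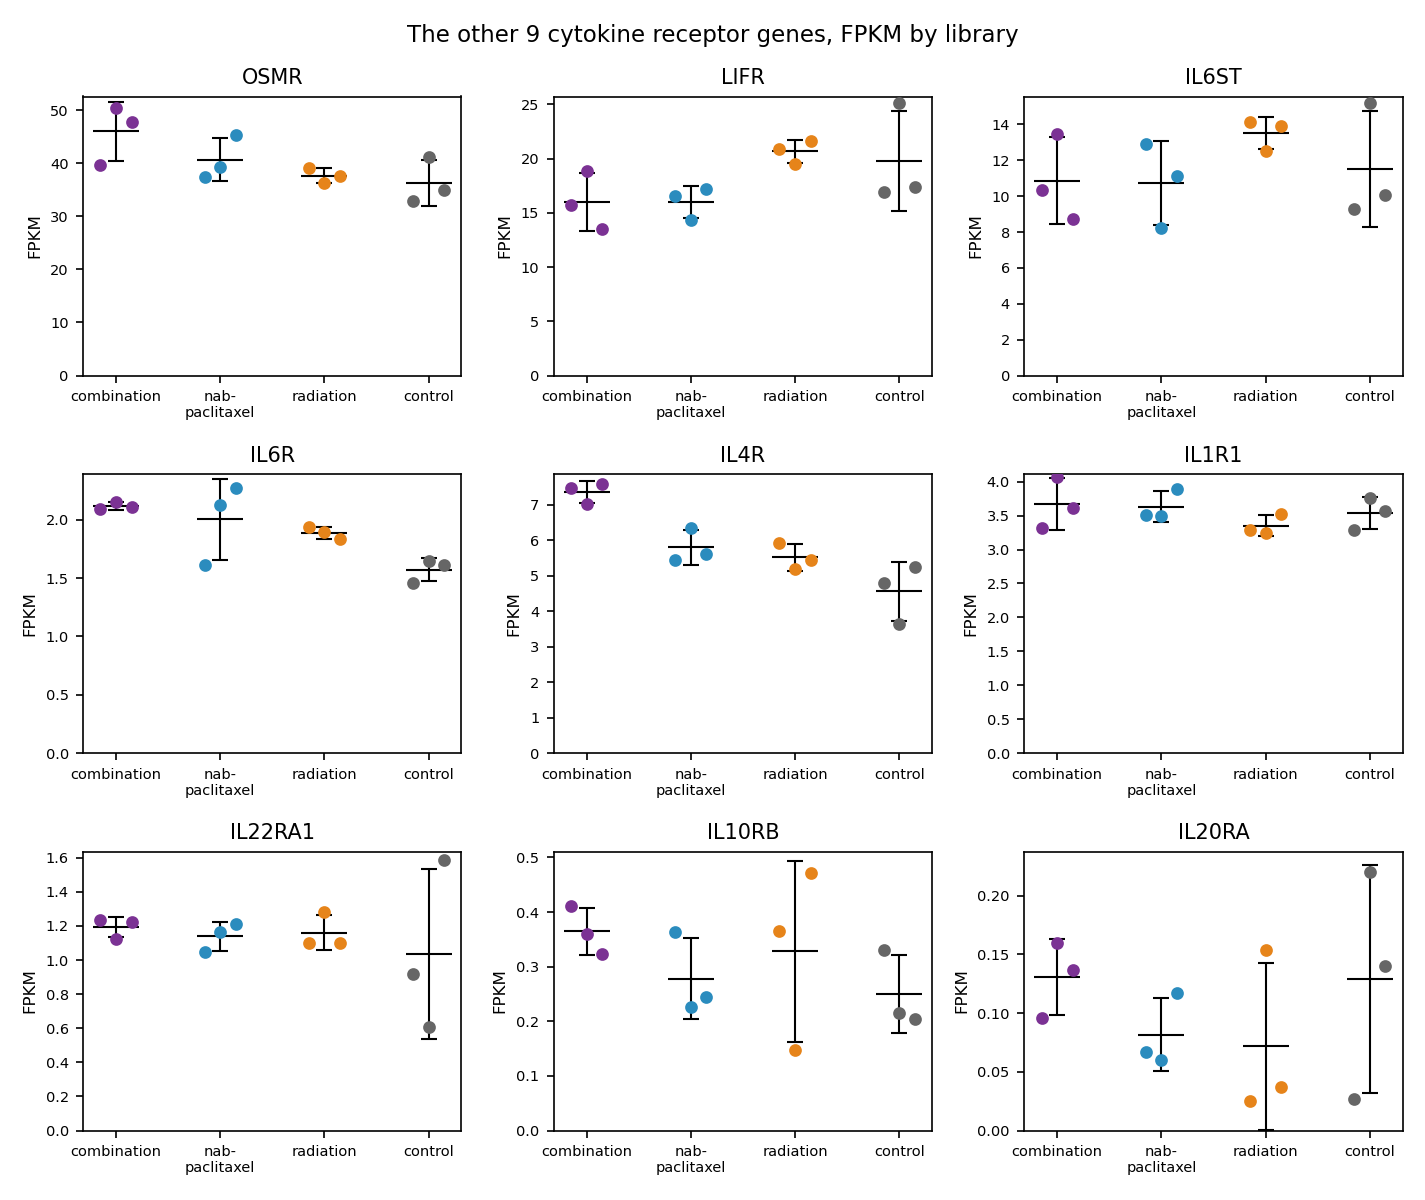
FPKM of the 9 receptor genes other than IL20RB in each library (points), with group mean and SD (lines and whiskers, n = 3). OSMR is the most abundant, at 32.8 to 50.4 FPKM, and IL20RA the least, at 0.0251 to 0.220 FPKM.

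By mean level, the order in control was OSMR, LIFR, IL6ST, IL20RB, IL4R, IL1R1, IL6R, IL22RA1, IL10RB and IL20RA. The libraries of IL6ST and IL20RB, of IL4R and IL1R1, of IL6R and IL22RA1, and of IL10RB and IL20RA overlapped there. IL20RB stood in place 4 in control, place 5 in radiation and in nab-paclitaxel, where it overlapped IL1R1, and place 7 in combination, below IL6R. The other 9 genes kept their order among themselves in all 4 groups.

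**Figure D4:**
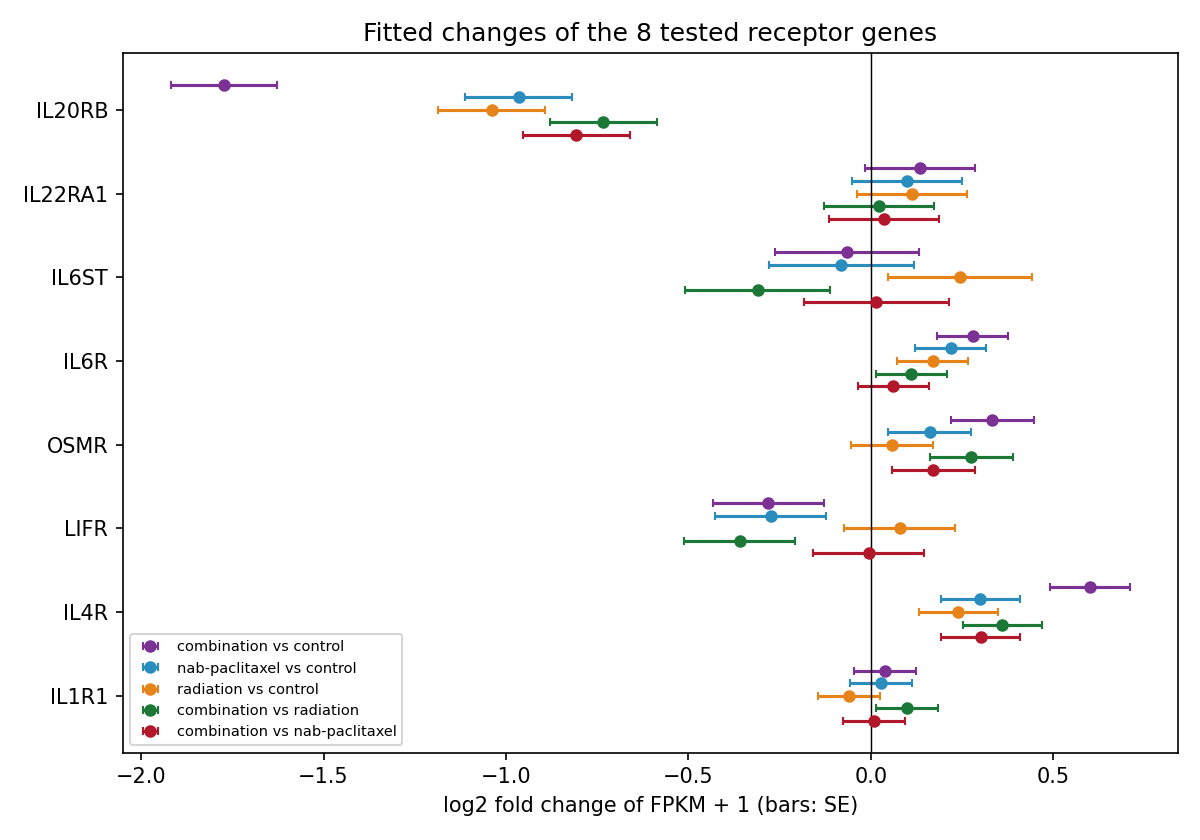
Fitted log2 fold change on FPKM + 1 with its SE for the 8 tested receptor genes in 5 comparisons. IL20RB lies at -0.73 to -1.77, while the other 7 genes lie between -0.36 and 0.60.

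Of the 7 tested receptor genes other than IL20RB, limma called 1 higher (IL4R) and 0 lower in combination vs control, where 22.9% of all tested genes were called, 12.2% higher and 10.6% lower. It called 0 of these 7 in each of the other comparisons. The background was 8.82% in nab-paclitaxel vs control (5.41% higher, 3.41% lower) and 5.93% in radiation vs control (2.48% higher, 3.45% lower). It was 7.75% in combination vs radiation (4.81% higher, 2.95% lower) and 3.92% in combination vs nab-paclitaxel (1.21% higher, 2.7% lower). With IL20RB included, groups did not overlap for 3 of 8 genes in combination vs control, beside 37.3% of all tested genes, and for 2 in nab-paclitaxel vs control, beside 26.1%. They did not overlap for 2 in radiation vs control (28.4% of all), 5 in combination vs radiation (40.5%) and 2 in combination vs nab-paclitaxel (20.9%). The median log2 fold change of the 8 was 0.09 in combination vs control, beside 0.0036 over all genes tested, 0.06 in nab-paclitaxel vs control, beside 0.04, and 0.10 in radiation vs control, beside -0.02. With IL20RB chosen for its values and 8 genes in all, nothing is read from these counts. No gene of the table passed the interaction test in limma (0 of 13609), with 443 at an unadjusted p under 0.05, of which 0 were receptor genes described here, and 0 calls with voom.

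Downstream of the JAK-coupled chains, STAT3 rose under every treatment. STAT3, the main transcription factor of gp130 signals, had 42.0, 40.2 and 44.0 FPKM in combination, 25.96, 32.3 and 31.0 in nab-paclitaxel, 32.4, 33.8 and 32.9 in radiation, and 21.5, 19.3 and 22.5 in control. The combination libraries were the highest and the controls the lowest, with no overlap. The change was 0.96 ± 0.09 for combination vs control (limma adjusted p = 9.13e-05), 0.47 ± 0.09 for nab-paclitaxel vs control (limma adjusted p = 0.0136) and 0.62 ± 0.09 for radiation vs control (limma adjusted p = 0.0035). The nab-paclitaxel call was lost under TPM scaling (adjusted p = 0.0832), quantile normalization (0.0934) and in a fit of these 2 groups alone (0.153).

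Of the 10 tested JAK and STAT genes 2 rose, 1 fell and 7 did not pass in combination vs control, with a median of 0.02. Over all tested genes 12.2% were called higher and 10.6% lower, and nothing is read from a count of 10 genes. JAK3 rose (2.68 ± 0.378 FPKM in combination, 1.62 ± 0.213 in control), and lost its call without combination 3 (limma adjusted p = 0.0567). STAT5B fell (1.34 ± 0.0517 FPKM in combination, 2.02 ± 0.127 in control), and lost its call in a fit of these 2 groups alone (limma adjusted p = 0.052). Without the 3 picked libraries 6 of the 10 passed, 4 of them higher. Over all 13609 genes tested 5049 were called in that fit, 2715 of them higher, so nothing is read from this count.

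Among the inhibitors of cytokine signalling 2 of 16 rose, 2 fell and 12 did not pass in combination vs control, with a median of -0.0076. Over all tested genes 12.2% were called higher and 10.6% lower, so nothing is read from this count. PTPN1, a phosphatase that acts on JAK kinases, rose (52.0 ± 1.79 FPKM in combination, 35.1 ± 1.73 in control, log2 fold change 0.55 ± 0.07, limma adjusted p = 3.14e-04). SOCS2 rose as well (2.20 ± 0.194 FPKM in combination, 1.32 ± 0.112 in control). PIAS1 and PTPN11 fell (-0.44 ± 0.12 and -0.27 ± 0.08). PIAS1 lost its call without control 2 or combination 1 or 3 (limma adjusted p = 0.0553, 0.0802 and 0.0745). Its call was also lost without the filter on low values (0.0533) and in a fit of combination and control alone (0.0729). PTPN11 lost its call without control 2 (0.0794), any 1 of the radiation libraries (0.0536 to 0.0564), combination 1 (0.0962) or combination 3 (0.128), and with the replicate block (0.0544). Without the filter (limma adjusted p = 0.0528) and in a fit of combination and control alone (0.116) it was lost too.

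Among the signalling genes of IL-1 receptors 3 of 12 rose, 1 fell and 8 did not pass in combination vs control, with a median of 0.04. Over all tested genes 12.2% were called higher and 10.6% lower, and nothing is read from a count of 12 genes. IRAK2, a kinase-like adaptor, rose (8.48 ± 0.287 FPKM in combination, 4.89 ± 0.471 in control, log2 fold change 0.69 ± 0.08, limma adjusted p = 2.49e-04). The adaptor MYD88 (0.45 ± 0.08) and the kinase IRAK4 (0.44 ± 0.11) rose too. PELI2, a ubiquitin ligase, fell (-0.30 ± 0.08), and lost its call without control 2 or 3 (limma adjusted p = 0.0553 and 0.0671), without combination 1 or 3 (0.0874 and 0.0811) and with the replicate block (0.0519). The call was also lost under quantile normalization (0.0691), without the filter on low values (0.0501) and in a fit of combination and control alone (0.0728).

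Of 19 other receptor subunits tested 2 rose, 2 fell and 15 did not pass in combination vs control, with a median of 0.02. Over all tested genes 12.2% were called higher and 10.6% lower, so nothing is read from this count. Without the 3 picked libraries 8 passed, beside 5049 of the 13609 genes tested. Beside IL13RA1, IL15RA rose (2.28 ± 0.272 FPKM in combination, 1.26 ± 0.101 in control, log2 fold change 0.54 ± 0.10, limma adjusted p = 0.00443). EPOR, the erythropoietin receptor, fell (-0.35 ± 0.09). It lost its call without control 1 (limma adjusted p = 0.0688) or combination 3 (0.0711), and in a fit of combination and control alone (0.0632). IFNGR2, a chain of the interferon gamma receptor, rose in combination vs radiation (15.8 ± 1.06 FPKM in combination, 11.2 ± 0.497 in radiation). It lost that call without any 1 of the radiation libraries (limma adjusted p = 0.0601 to 0.0786) or combination 3 (0.0832).

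Of 6 tested genes of receptor shedding and traffic 0 rose, 2 fell and 4 did not pass in combination vs control, with a median of -0.25. Over all tested genes 10.6% were called lower. Leaving out 1 library at a time gave 0 to 3 calls, and the replicate block gave 1, with ADAM17 lost (limma adjusted p = 0.0537). Leaving out the 3 picked libraries gave 4, of which 0 were higher. Over all 13609 genes tested 5049 were called in that fit, 2715 of them higher, so nothing is read from this count. ADAM17, the protease that sheds IL6R, averaged 6.65 ± 0.581 FPKM in combination and 8.18 ± 0.696 FPKM in control. The sorting receptor SORL1 averaged 6.14 ± 0.457 FPKM in combination and 8.15 ± 0.266 FPKM in control. Both calls were lost without control 1 or 2, any 1 of the radiation libraries, nab-paclitaxel 2, or combination 1 or 3. ADAM17 also lost its call without nab-paclitaxel 3, and SORL1 without control 3 or combination 2. Limma adjusted p reached 0.146 for ADAM17 and 0.133 for SORL1. Without the filter on low values (0.0775 and 0.0975) and under TPM scaling (0.0589 and 0.0866) both were lost as well. ADAM17 was lost in a fit of combination and control alone (0.123).

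Of 28 listed genes that STAT3 is known to control 16 were tested. The others averaged below 1 FPKM, among them CRP (0 in all 12 libraries) and SAA1 (at most 0.213 FPKM). Of the 16 tested, 7 rose, 1 fell and 8 did not pass in combination vs control, with a median of 0.36. Over all tested genes 12.2% were called higher and 10.6% lower. The count of 8 called became 5 to 10 with 1 library left out. Without the 3 picked libraries it was 12, of which 8 were higher and the others lower. Over all 13609 genes tested 5049 were called in that fit, 2715 of them higher. In nab-paclitaxel vs control 4 of 16 rose and 0 fell (median 0.32), where 5.41% of all genes were called higher and 3.41% lower. In radiation vs control 3 rose and 0 fell (median -0.04), where 2.48% of all genes were called higher and 3.45% lower. Without the 3 picked libraries 7 were called in radiation vs control, of which 3 were higher and the others lower. Over all 13609 genes tested 2947 were called in that fit, 1222 of them higher. The immediate early gene FOS rose to 10.7 ± 1.15 FPKM in combination, against 6.04 ± 1.19 in control (0.74 ± 0.12, limma adjusted p = 0.00144). The cyclin gene CCND1 (0.40 ± 0.07), the interferon response factor IRF1 (0.56 ± 0.10) and the protease inhibitor TIMP1 (0.56 ± 0.11) rose as well. SOCS3, the feedback inhibitor of gp130, averaged 13.2 FPKM in combination and 9.41 FPKM in control and did not pass (0.46, limma adjusted p = 0.0663). CEBPB, a transcription factor of the C/EBP family, was the 1 that fell (-0.46, limma adjusted p = 0.0237). These genes have other inputs besides STAT3.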

How the data were processed

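Messenger RNA of TFK1 cells was sequenced in 12 libraries, 3 per group. A SMARTer mRNA-seq kit was used for the libraries, per the labels' protocols. The submitters' processing notes name hg38 as the build. Aligner, counting tool and use of strand are not given in the sources. The authors deposited FPKM (fragments scaled by gene length and library size) for 58735 genes, with each gene's length. FPKM times length came in whole multiples of 1 step for 100% of values above 0 (within 0.05), which gave fragment numbers per gene and 14840283 to 17992242 per library.

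Values were tested as log2(FPKM + 1) for the 13609 genes averaging 1 FPKM or more. The tool was limma 3.58.1 (R 4.3.3), with the trend option and a spread shared by the 4 groups (8 residual and 3.39 prior degrees of freedom). It was two-sided, with Benjamini-Hochberg adjustment over all genes tested in each comparison and a threshold of 0.05. The labels call the replicates biological, with no further word on their source, so p-values measure the spread between these samples. The fit was also run on simulated libraries with the same dispersion for every gene, changes in combination only and no deviating library. That run checks the code and does not show how the fit behaves with libraries that deviate as here.

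The members and lists were chosen with earlier results of these data known. All 10 members are named, and no p is given for IL20RB. In a list, the genes named are those of smallest adjusted p under the threshold (4 at most), or else the 2 with the highest FPKM; SOCS3 and CEBPB were added after their values were seen. The 5 genes most like IL20RB were taken by Pearson correlation.

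Alternatives were other pseudocounts, filters, scalings, a replicate block, fits on fewer groups, voom on recovered fragments, leaving out each library, and leaving out control 2, nab-paclitaxel 1 and combination 2. Deviations from the group means correlated in all 3 same-numbered pairs of combination and control (r = 0.23, 0.54 and 0.17). In the other comparisons r ran from -0.49 to 0.17. The labels name no pairing, so the replicate block was run as an alternative only. Unless the block is named, p-values are from fits without it. The block left the member count of combination vs control at 2, a count that includes IL20RB, for which it is no test. Promoter sequences are from RefSeq (GRCh38.p14).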

Additional observations from a re-analysis of the deposited data

How the results depend on the processing

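Of 820 values of the 8 tested receptor genes under the alternatives, 765 kept their direction and side of the threshold, 17 came to pass, 7 no longer passed and 31 changed sign, each of these in a gene that did not pass. IL4R in combination vs control passed under every alternative run. IL20RB kept its sign in every alternative run and was not tested at a filter of 5 FPKM. These numbers and the counts of receptor genes called here include IL20RB, for which they are no test. At a filter of 5 FPKM the count was 0 in both comparisons of combination with a single treatment and in both of a single treatment with control. In fits of only the groups compared it was 0 in nab-paclitaxel vs control and combination vs nab-paclitaxel and 2 in combination vs radiation. It was 4 in combination vs control with voom on recovered fragments. The number of all genes called in that voom fit is not given here, so nothing is read from this count. Without control 2, nab-paclitaxel 1 and combination 2 it was 2 in radiation vs control and in nab-paclitaxel vs control, and 4 in combination vs control and in combination vs radiation. Leaving out 1 library at a time gave 2 to 4 in combination vs control and 0 to 2 in combination vs radiation. The causes were not tested. The replicate number as a block changed none of the receptor counts, and in combination vs control it ended the calls of ADAM17, PTPN11 and PELI2 (adjusted p = 0.0537, 0.0544 and 0.0519). In the labels the same-numbered samples share only a number. Outside combination vs control r between their deviations ran from -0.49 to 0.17.

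Values near 0 changed sign. Under TPM scaling IL22RA1 was at -0.0069 in combination vs radiation. Under quantile normalization OSMR was at -0.00021 in nab-paclitaxel vs control and LIFR at 0.038 in combination vs nab-paclitaxel. Without the 3 libraries IL22RA1 was at -0.045, -0.026 and -0.00046 in radiation, nab-paclitaxel and combination vs control, and IL6ST at -0.0079, IL1R1 at -0.071 and IL6R at -0.044 in combination vs nab-paclitaxel. With 1 library left out, IL1R1 ranged from -0.023 to 0.093 in combination vs control, -0.052 to 0.065 in combination vs nab-paclitaxel and -0.012 to 0.064 in nab-paclitaxel vs control. IL22RA1 ranged from -0.023 to 0.32 in combination, -0.059 to 0.28 in nab-paclitaxel and -0.045 to 0.30 in radiation vs control. IL6ST ranged from -0.22 to 0.14 in combination vs control, -0.15 to 0.15 in combination vs nab-paclitaxel and -0.21 to 0.12 in nab-paclitaxel vs control. IL6R ranged from -0.036 to 0.13 and LIFR from -0.12 to 0.10 in combination vs nab-paclitaxel. LIFR ranged from -0.019 to 0.25 and OSMR from -0.010 to 0.15 in radiation vs control.

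Counts over all genes moved more. With 1 library left out they ranged from 1964 to 3926 in combination vs control (3111 in the fit reported), 524 to 1181 in nab-paclitaxel vs control (1200), 320 to 1305 in radiation vs control (807), 218 to 1879 in combination vs radiation (1055) and 177 to 734 in combination vs nab-paclitaxel (533). Without the 3 libraries they were 5049, 1836, 2947, 4128 and 1301, and with the replicate block 2660, 701, 531, 606 and 306. Without a filter they were 579 in nab-paclitaxel vs control, 577 in combination vs radiation, 276 in combination vs nab-paclitaxel and 5 in the interaction, and at 5 FPKM 2018 in combination vs control. In fits of only the groups compared they were 8 in nab-paclitaxel vs control, 2502 in combination vs radiation and 93 in combination vs nab-paclitaxel. Under quantile normalization 381 of 789 calls were higher in nab-paclitaxel vs control, beside 736 of 1200, and 196 of 469 in combination vs nab-paclitaxel, beside 165 of 533. IL20RA and IL10RB, at 2 to 37 fragments per library, are limited by counting.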
